A study of Mus musculus with 9 samples.

Results

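The genes described are those of the mitochondrial ribosomal proteins, taken as every gene of the array whose name starts with Mrpl or Mrps followed by a digit. There were 76 of them among 21609 genes tested, 49 coding for proteins of the large subunit, 26 for proteins of the small subunit, and Mrps36, which bears the name but codes for a part of the 2-oxoglutarate dehydrogenase complex. Whole stomachs of 9 newborn mice were profiled, 5 of them with a C/EBPbeta knockout (KO 1 to KO 5) and the other 4 wild type (WT 1 to WT 4), each on an Agilent 1-colour array of its own. The labels give neither the strain, the knockout allele nor the mice's sex, and they call the animals old in one field although their protocol has them killed at birth. C/EBPbeta, the product of Cebpb, is a transcription factor of the leucine zipper class, and the comparison asks what differs in the newborn stomach without it.

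Mitochondria carry their own ribosome, which translates the few messenger RNAs of the mitochondrial genome into membrane subunits of the respiratory chain and of ATP synthase. Its ribosomal RNAs come from mitochondrial DNA, whereas its proteins are coded in the nucleus, made in the cytosol and imported. Some of these proteins descend from the bacterial ribosome, and others were added in the evolution of mitochondria. In the newborn stomach, the acid-secreting parietal cells are known for their many mitochondria.

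A level here is the log2 ratio of a probe's processed signal to its array's 75th percentile, and each gene was read from its brightest probe. Levels of different probes are not compared. The 75th percentile lay between 221 (WT 4) and 472 (KO 3), between 50.9% and 57.2% of the spots per array were well above background, and 0 spots were saturated. Cebpb had levels of −2.74, −2.87, −1.58, −2.04 and −1.68 in the knockouts against 3.71, 3.21, 3.28 and 3.00 in the wild types. All 8 stomach markers examined, among them Gkn1 and Muc5ac, were measured. Y-linked signal was absent on KO 2, KO 4 and KO 5 and present on the other 6 arrays, so sex was not balanced. KO 4, KO 5, WT 3 and WT 4 shared 1 slide and KO 2, WT 1 and WT 2 another, while KO 1 and KO 3 each lay on a slide with no other array of the study.

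None of the 76 genes passed the test between knockout and wild type. In limma, 0 of 76 had an adjusted p below 0.05, against 44 of 21609 genes (0.204%), and the lowest adjusted p was 0.429. At an unadjusted p below 0.05, 1 of the 76 was higher in the knockout and 1 lower, where 5.06% of all genes were higher and 3.67% lower by that rule. The differences ran from −0.45 for Mrpl49 to 0.42 for Mrps31 on the log2 scale, with a median of 0.045 beside 0.0052 for all genes. Of the 76, 48 (63.2%) lay above 0, against 50.9% of all genes. With the array median in place of the 75th percentile, 60 of the 76 and 61.2% of all genes lay above 0. The 95% interval of the difference stayed inside a 2-fold change in either direction for 75 of the 76 genes, Mrpl49 being the exception, and inside 1.5-fold for 58. Among all genes, 73.9% had an interval inside 2-fold. The residual SD between arrays of a group had a median of 0.182 for the 76 genes and 0.349 for all genes. It was 0.175 for 82 genes of cytosolic ribosomal proteins and 0.183 for 83 of the respiratory chain and ATP synthase. In these 2 lists 81 and 79 genes had an interval inside 2-fold, so the narrow spread was not particular to the 76.

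**Figure D1:**
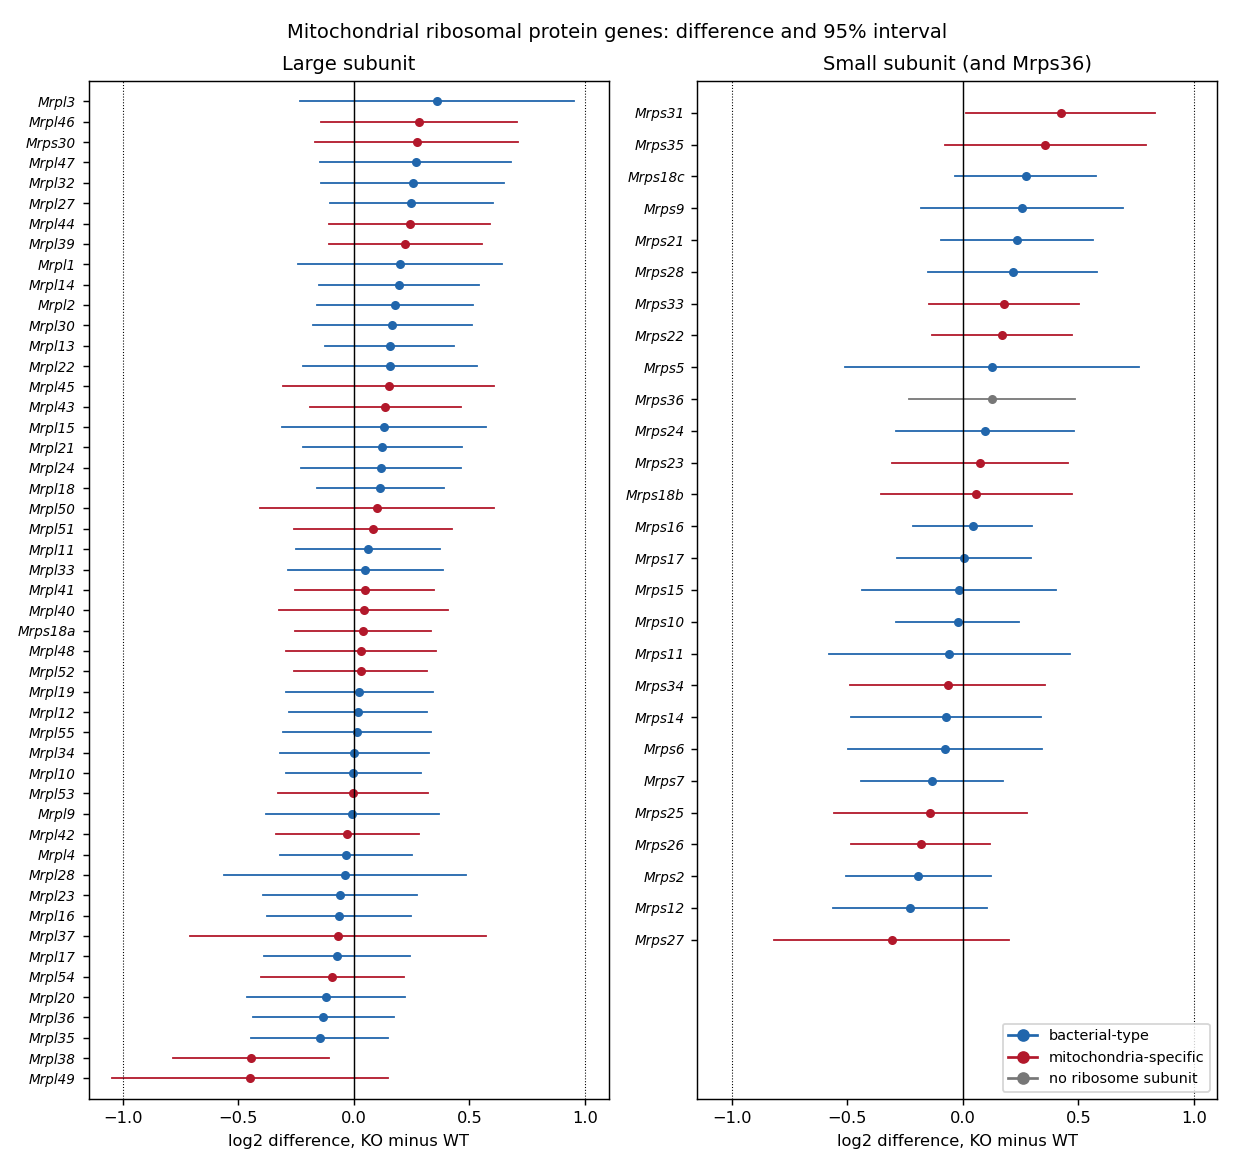
Log2 difference (knockout minus wild type, horizontal axis) of each of the 76 genes with its 95% interval from limma. The large subunit is on the left and the small subunit with Mrps36 on the right. Colours mark genes listed as of bacterial descent or as mitochondria-specific, and dotted lines a 2-fold change. The points lie between −0.45 and 0.42, and only the intervals of Mrpl38 and Mrps31 do not cross 0.

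The gene with the smallest p was Mrpl38, whose product is a mitochondria-specific protein of the large subunit. The knockouts KO 1 to KO 5 read 0.87, 0.93, 0.55, 0.77 and 0.91, and the wild types WT 1 to WT 4 read 1.30, 1.51, 1.11 and 1.08. Every knockout lay below every wild type, a separation seen in that direction in 1.07% of all genes and in 1 of these 76. The log2 difference was −0.45 ± 0.15 (SE, n = 5 and 4), or 0.734-fold, with an unadjusted p of 0.0144 and an adjusted p of 0.429 in limma. The exact permutation test (two-sided, all ways to split 9 arrays into 5 and 4) gave p = 0.00794, the smallest value possible at these group sizes. Groups that lie fully apart put this test at or next to that value, so it restates the separation. It was not adjusted for the choice among 76 genes. The difference was −0.26 on the slide that holds KO 4, KO 5, WT 3 and WT 4, and −0.48 on the slide of KO 2, WT 1 and WT 2. In the other direction, 0 of the 76 genes had every knockout above every wild type, a separation found in 2.31% of all genes.

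Mrps31, coding for a mitochondria-specific protein of the small subunit, was the other gene with an unadjusted p below 0.05. In the same order of arrays, the knockouts read 2.05, 2.13, 2.52, 1.96 and 2.50 and the wild types 1.83, 1.71, 1.55 and 2.13. The groups overlapped, because WT 4 was about as high as KO 2, and KO 3 and KO 5 stood above the other arrays. The log2 difference was 0.42 ± 0.18 (SE), with an unadjusted p of 0.0433 and an adjusted p of 0.550 in limma, and the exact permutation test gave p = 0.0556.

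The sequences show what was hybridised for these genes, given as the first 30 bases of each 60-base probe, 5′ to 3′ as the array design lists them, with no base in capitals. The Mrpl38 probe lies on chromosome 11, 115993268 to 115993327 (mm9, minus strand), from base 1214 of its transcript and within 1 exon. The Mrps31 probe lies on chromosome 8, 23538340 to 23539688 (plus strand), and crosses an exon junction.
Mrpl38 probe: ccacctatggaatctactgagagactcagt
Mrps31 probe: agttcccagtcaacaatgaagcaggtttag

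**Figure D2:**
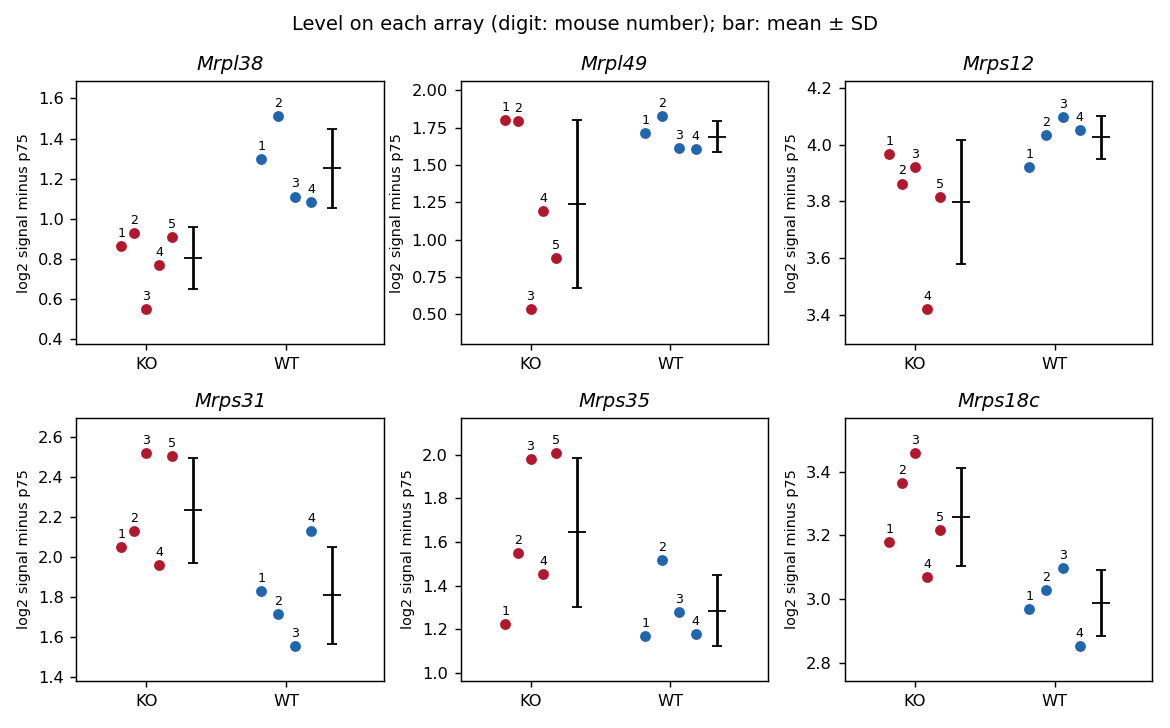
Level (log2 processed signal relative to the array's 75th percentile, vertical axis) of 6 genes on every array, with the mouse number at each point and the mean ± SD of each group (5 knockout, 4 wild type) beside it. In Mrpl38 the knockouts, up to 0.93, lie below all wild types, from 1.08 up; in the other 5 genes the groups overlap.

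The proteins of bacterial descent form the core of both subunits. In the large subunit, 20 of 30 such genes lay above 0, with a median log2 difference of 0.056. The lead by p among them was Mrpl27, whose bacterial relative reaches towards the peptidyl transferase centre. Its levels were 3.42, 3.64, 3.67, 3.09 and 3.53 in the knockouts and 3.20, 3.18, 3.11 and 3.39 in the wild types, a difference of 0.25 ± 0.16 (SE). KO 4 fell below all wild types, and the other knockouts lay above them. Mrpl35 was the lowest of these 30 genes at −0.15 ± 0.13.

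In the small subunit, 8 of 16 genes of bacterial descent lay above 0 and the median was −0.0065. Mrps18c codes for 1 of 3 mammalian relatives of bacterial protein S18, and the genes of the other relatives were listed here as mitochondria-specific. Mrps18c had levels of 3.18, 3.36, 3.46, 3.07 and 3.22 in the knockouts and 2.97, 3.03, 3.10 and 2.85 in the wild types. Of the knockouts, KO 4 alone lay below the highest wild type, WT 3. The difference was 0.27 ± 0.14 (SE, limma adjusted p = 0.630, exact permutation p = 0.0238). Mrps21 showed 0.23 ± 0.15.

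Mrps12, the relative of bacterial S12 at the decoding site, had levels of 3.97, 3.86, 3.92, 3.42 and 3.81 in the knockouts and 3.92, 4.03, 4.10 and 4.05 in the wild types. KO 4 stood 0.61 below the wild-type mean and carried much of the difference, which was −0.23 ± 0.15 and became −0.13 without that array. Mrps2 differed by −0.19 ± 0.14 and Mrps7, the relative of a protein that organises the head of the bacterial small subunit, by −0.13 ± 0.14. Leaving out any 1 array brought none of the 76 genes past the threshold.

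Of 19 mitochondria-specific genes of the large subunit, 13 lay above 0 with a median of 0.041. Mrpl44, whose product has a fold like that of ribonuclease III, differed by 0.24 ± 0.16, and Mrpl39, related to threonyl-tRNA synthetase, by 0.22 ± 0.15. Mrpl46 differed by 0.28 ± 0.19, which was 0.17 without WT 4, its lowest array at 0.72 beside 1.14 to 1.19 on the other wild types.

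Among 10 mitochondria-specific genes of the small subunit, 6 lay above 0 with a median of 0.067. Mrps35 had levels of 1.23, 1.55, 1.98, 1.45 and 2.01 in the knockouts and 1.17, 1.52, 1.28 and 1.18 in the wild types. KO 3 and KO 5 were high and the other arrays of both groups intermixed, which gave 0.36 ± 0.19. Its probe was printed 8 to 10 times per array, and the SD between these repeat spots had a median of 0.056, whereas the residual SD between arrays was 0.279. Mrps26 differed by −0.18 ± 0.14. Mrps27, a pentatricopeptide repeat protein, differed by −0.31 ± 0.23, with WT 2 highest at 1.05 and WT 4 lowest at −0.16.

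Mrpl49, of the large subunit, had the widest spread between knockouts. The knockouts read 1.80, 1.80, 0.53, 1.19 and 0.88 in order, beside 1.71, 1.83, 1.61 and 1.61 for the wild types. KO 1 and KO 2 thus lay among the wild types and the other 3 knockouts below them, and the difference of −0.45 ± 0.27 did not pass the test (limma adjusted p = 0.712). A second probe for Mrpl49, further upstream, read 0.82, 1.03, 0.56, 0.51 and 0.53 in the knockouts and 1.00, 1.03, 0.75 and 0.77 in the wild types, with the same 3 knockouts lowest.

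The same 3 knockouts stood apart at Mrps7, but at 1 of its probes only. The probe with the higher signal read 3.93, 4.09, 4.00, 3.63 and 3.82 in the knockouts and 4.07, 4.09, 3.99 and 3.97 in the wild types. The other begins at the last base of the first and read 0.72, 0.84, −0.01, −0.09 and −0.06 in the knockouts and 0.71, 0.93, 0.83 and 0.71 in the wild types. Its KO 3, KO 4 and KO 5 values were lower than those of all other arrays, while KO 1 and KO 2 lay among the wild types. The difference between groups was −0.51 at this probe (unadjusted p = 0.0516 in limma) and −0.13 at its neighbour. Both are shown because they abut on chromosome 11, at 115468609 to 115468668 and 115468668 to 115468727 (mm9, plus strand), and gave different patterns over the knockouts. This pair was chosen after its values were seen, and the cause was not tested.
Mrps7 brighter probe: aataaatgttgagctcctgctgtcctgttg
Mrps7 dimmer probe: gctgtttgtaatgcagtcttccattctgtg

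Several genes were read by more than 1 probe. Of 25 genes with at least 2 kept probes, 7 had probes whose differences were of opposite sign, namely Mrpl9, Mrpl40, Mrpl41, Mrpl47, Mrps14, Mrps18b and Mrps36. In each of these but Mrpl47, every probe's difference was smaller than its SE, so the signs there were not resolved. In Mrpl47, the most divergent, 4 probes gave differences from −0.33 to 0.27, and the brightest gave 0.27 ± 0.19. For the remaining 18 genes the probes had the same sign.

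Averaged over the 76 genes, the level relative to each gene's wild-type mean was −0.0062, 0.12, 0.15, −0.10 and 0.092 for the knockouts in order and 0.034, 0.059, −0.026 and −0.067 for the wild types. The groups overlapped, and their means differed by 0.051 beside an SD of 0.105 among the knockouts and 0.057 among the wild types. Within the slide of KO 4, KO 5, WT 3 and WT 4 the difference was 0.040, and within that of KO 2, WT 1 and WT 2 it was 0.074. KO 4 was the lowest knockout for 40 of the 76 genes and KO 3 the highest for 29. Such counts were not made for the knockouts over all genes. By the mean, KO 4 was also the lowest knockout over all genes, at −0.050, and over cytosolic ribosomal protein genes, at −0.22. WT 4 was the lowest wild type for 35 genes and the highest for 28, so it was at one end of the group for most of them. Among all genes, WT 4 was lowest at 7209 of 20701 probes within 1 exon and at 448 of 736 across an exon junction. How often it was highest was not counted over all genes.

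**Figure D3:**
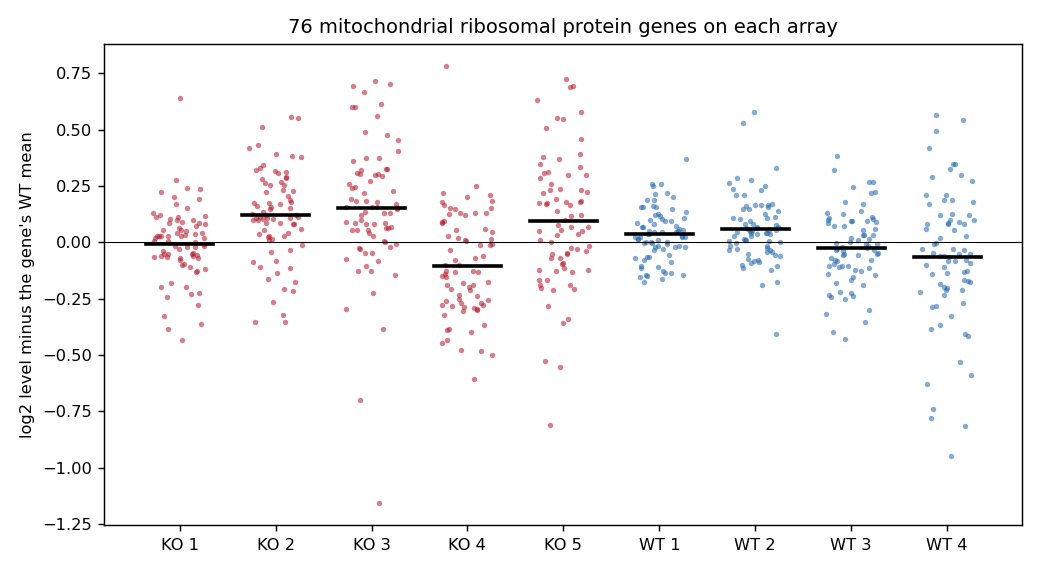
Each point is 1 of the 76 genes on 1 array, as its log2 level minus that gene's wild-type mean (vertical axis); red marks knockout and blue wild-type arrays, and the bar is the mean over genes. The means lie between −0.10 (KO 4) and 0.15 (KO 3), and WT 4 spreads wider than the other wild types.

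In genes read at both an upstream and a downstream place of the transcript, WT 4 was mostly low upstream relative to downstream. Labelling was primed with oligo dT, which starts at the poly(A) tail. For 15 of the genes, 2 probes sat on the same transcript at least 200 bases apart, and the level at the upstream probe minus that at the downstream one was taken on each array relative to its median over arrays. Its median over the 15 genes was −0.67 on WT 4, −0.26 on KO 1 and −0.12 on KO 2, and between 0 and 0.14 on the other 6 arrays. WT 4 gave the lowest value in 12 of the 15 genes (80%). Over 2307 such pairs of all genes, WT 4 was lowest in 28.7% with a median of 0, over 471 pairs 200 to 500 bases apart in 48.6% with a median of −0.26, and over 687 pairs at least 2000 bases apart in 13.8% with a median of 0.24. Of 21 pairs in cytosolic ribosomal protein genes WT 4 was lowest in 47.6%, and of 8 pairs in respiratory chain genes in 75%. The gap on WT 4 did not always come from a low upstream probe. At Mrpl41, WT 4 was the highest wild type upstream, at 3.57. Downstream it read −0.87, beside −2.82 to −2.36 on the other wild types.

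At Mrpl22 the upstream probe read 0.38, 0.63, 1.14, 0.63 and 0.95 in the knockouts and 0.87, 0.92, 0.91 and −0.53 in the wild types, with WT 4 last. Its downstream probe read 3.22, 3.42, 3.51, 2.87 and 3.42 and then 3.21, 3.30, 3.11 and 2.91. WT 4 was thus more than 1 log2 unit below the other wild types upstream, and much nearer to them downstream. At Mrps23 the upstream probe read −0.78 on WT 4 beside 0.03 to 0.28 on the other wild types, while downstream WT 4, at 4.08, was the highest wild type. Mrps2 and Mrps18b also had WT 4 as the lowest wild type upstream. Upstream minus downstream on WT 4 was lower by 1.08 in each than its median over arrays. Downstream, WT 4 was the highest wild type at Mrps18b, at 4.43, but the lowest at Mrps2, at 0.91.

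The 4 pairs are printed because each reads 1 messenger RNA at 2 places (first 30 of 60 bases, 5′ to 3′, mm9 coordinates). They were chosen after their values were seen. The Mrpl22 probes start at bases 386 and 663 of the transcript (chr11:57990734-57992784 across an exon junction and chr11:57993002-57993061, plus strand). Those of Mrps23 start at bases 174 and 1232 (chr11:88018797-88018856 and chr11:88024940-88024999, plus strand). Those of Mrps2 start at bases 587 and 1664 (chr2:28325206-28325265 and chr2:28326283-28326342, plus strand). Those of Mrps18b start at bases 260 and 992 (chr17:36051313-36051461 across an exon junction and chr17:36047331-36047390, minus strand).
Mrpl22 upstream: caagacatggcagtgagagaccataatgtg
Mrpl22 downstream: ggtcatcctggctccacggtgtatatagct
Mrps23 upstream: ttgcgatatggcaaagccaaagctgacatc
Mrps23 downstream: aacatcctgccgccctggtactgcttcctt
Mrps2 upstream: gcctaccagacctcatcatctttctgcaca
Mrps2 downstream: caaagaaggaaatccatacctgtttcccac
Mrps18b upstream: acagcggacccgaaagacatgtattcgtaa
Mrps18b downstream: ggtgtgtccctgatttaaacctcctggctc

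**Figure D4:**
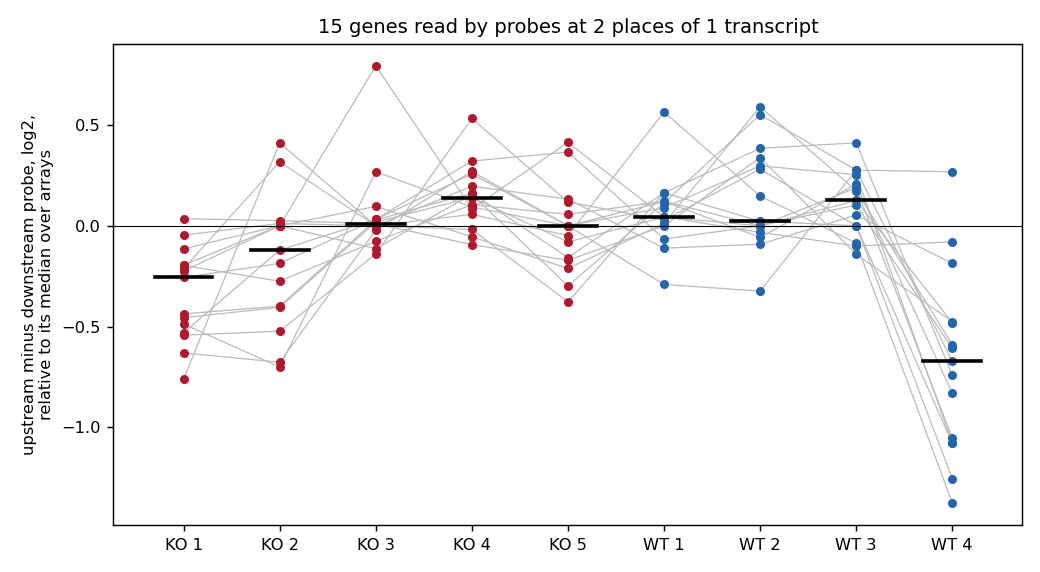
Log2 level at the upstream probe minus that at the downstream probe, relative to its median over arrays (vertical axis), on each array (horizontal axis) for 15 genes; grey lines join a gene, and black bars are medians. WT 4 has a median of −0.67 and KO 1 of −0.26, while the other arrays lie between −0.12 and 0.14.

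A like pattern appeared by exon structure. In 10 of the 76 genes the probe in use crossed an intron in the genome, and in 66 it lay in 1 exon. Over the 10, the median level on WT 4 was 0.47 below the genes' wild-type means (−0.47), WT 4 was the lowest wild type in 7, and the median difference between groups was 0.13 with WT 4 and −0.040 without it. Over the 66, the median on WT 4 was −0.041, and the difference went from 0.040 to 0.056. In all genes, 736 probes that crossed an intron had a median of −0.32 on WT 4. WT 4 was the lowest wild type in 448 of the 736, and their median difference went from 0.022 to −0.052 without it. The medians of those 10 genes and of all 736 probes were thus positive with WT 4 and negative without it. For these probe sets no other array was left out, and the cause was not tested.

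Markers of other cells and tissues also stood apart on WT 4. The summed level of 5 measured skeletal muscle genes, as signal relative to the array's 75th percentile, was 6.97 on WT 4 beside 20.2 to 43.3 on the other wild types, and 10.1 to 34.0 in the knockouts. That of 5 squamous forestomach genes was 477 on WT 4, from 1029 to 1378 on the other wild types and from 357 to 996 in the knockouts. The 6 proliferation genes were likewise low, at 22.0 on WT 4 beside 48.1 to 49.7 on the other wild types and 31.2 to 42.2 in the knockouts. Other lists were high on WT 4. The 8 stomach markers summed to 1602 beside 920 to 1129 on the other wild types, the 4 liver genes to 22.1 beside 12.3 to 14.9 (15.2 to 32.0 in the knockouts), and 3 measured pancreas genes to 2.27 beside 0.63 to 0.74 (0.51 to 1.22 in the knockouts). Mb of the muscle list and Prss1 and Pnlip of the pancreas list were not well above background on enough arrays to be tested. Their part in the WT 4 values was not tested. RNA from whole stomachs was measured, in which fewer cells of a type and less RNA per cell cannot be told apart.

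The rest of the mitochondrial translation machinery was described from lists of its genes. Of 7 ribosome subunits under other names (Dap3, Ptcd3, Chchd1, Aurkaip1, Gadd45gip1, Ict1 and Mrp63), 5 lay above 0 with a median of 0.087, and none passed an unadjusted p of 0.05. Of 14 translation factors, 5 lay above 0 with a median of −0.11. None reached that level either, and the initiation factor gene Mtif3 differed by −0.21 ± 0.14 (SE).

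Of 22 genes for assembly of the mitochondrial ribosome and modification of its RNA, 7 lay above 0 with a median of −0.060. Ngrn was the 1 higher at an unadjusted p below 0.05, at 0.40 ± 0.16, and Wbscr16 the 1 lower, at −0.40 ± 0.16. By that rule 5.06% of all genes were higher and 3.67% lower. Of 19 genes that charge mitochondrial transfer RNAs, 8 lay above 0 with a median of −0.099. Gatc, a subunit of the enzyme that makes glutaminyl-tRNA in mitochondria, had levels of −1.64, −1.31, −1.41, −1.35 and −1.53 in the knockouts and −1.17, −0.86, −1.19 and −0.90 in the wild types. All knockouts lay below all wild types, as in 1 of these 19 genes and in 1.07% of all genes. The difference was −0.42 ± 0.14 (limma adjusted p = 0.430).

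Of 9 genes for the upkeep and transcription of mitochondrial DNA, 6 lay above 0 with a median of 0.14. Lrpprc, which stabilises mitochondrial messenger RNAs, had levels of 3.02, 2.99, 3.21, 3.04 and 3.20 in the knockouts and 2.77, 2.93, 2.83 and 2.43 in the wild types, with no overlap, and differed by 0.35 ± 0.15. Every knockout lay above every wild type in 1 of these 9 genes and in 2.31% of all genes. Tfam, which packages mitochondrial DNA, differed by 0.25 ± 0.15. Of 10 regulators of mitochondrial biogenesis, 6 lay above 0, and Gabpa, the DNA-binding subunit of the ETS factor GABP, differed by 0.40 ± 0.17 (unadjusted p = 0.0442 in limma). Gabpa was the 1 of the 10 higher at an unadjusted p below 0.05, beside 5.06% of all genes. No gene of these 6 lists passed the adjusted test.

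Cytosolic ribosomal proteins and the respiratory chain give 2 reference lists. Of 82 cytosolic ribosomal protein genes tested, 41 lay above 0 with a median of 0.00036 and none had an unadjusted p below 0.05. Of 83 genes of the respiratory chain and ATP synthase, 74 lay above 0 with a median of 0.20, 11 had every knockout above every wild type (2.31% of all genes did), and 0 passed the adjusted test. The corresponding counts for the mitochondrial ribosome were 48 of 76, 0.045 and 0, and the difference between the lists was not tested. The array means of the respiratory chain genes, relative to the wild-type mean, were 0.13, 0.35, 0.22, 0.023 and 0.18 in the knockouts and 0.017, 0.078, 0.053 and −0.15 in the wild types. Of 6 parietal cell markers, 6 lay above 0, and their summed level was 234 to 411 in the knockouts and 209 to 312 in the wild types. Of 8 stomach markers, 6 lay above 0, 1 passed the adjusted test (Gkn2, higher), and the summed level was 1254 to 1950 in the knockouts and 920 to 1602 in the wild types. Their log2 differences ran from −1.04 to 1.83. In limma, 4 of the 8 were higher and 1 lower at an unadjusted p below 0.05 (5.06% and 3.67% of all genes). In 1 marker every knockout lay below every wild type, as in 1.07% of all genes, and in 3 above. Of 4 smooth muscle markers, 4 lay below 0 and none passed the adjusted test. At an unadjusted p below 0.05 in limma 2 were lower (3.67% of all genes). In 1 every knockout lay below every wild type (1.07% of all genes). Their summed level was 336 to 582 in the knockouts and 603 to 904 in the wild types. As mean log2 deviations the groups overlapped, with WT 4 at −0.67 and the knockouts from −1.23 to −0.26. All markers of these 3 lists were measured, and their part in these values was not tested.

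**Figure D5:**
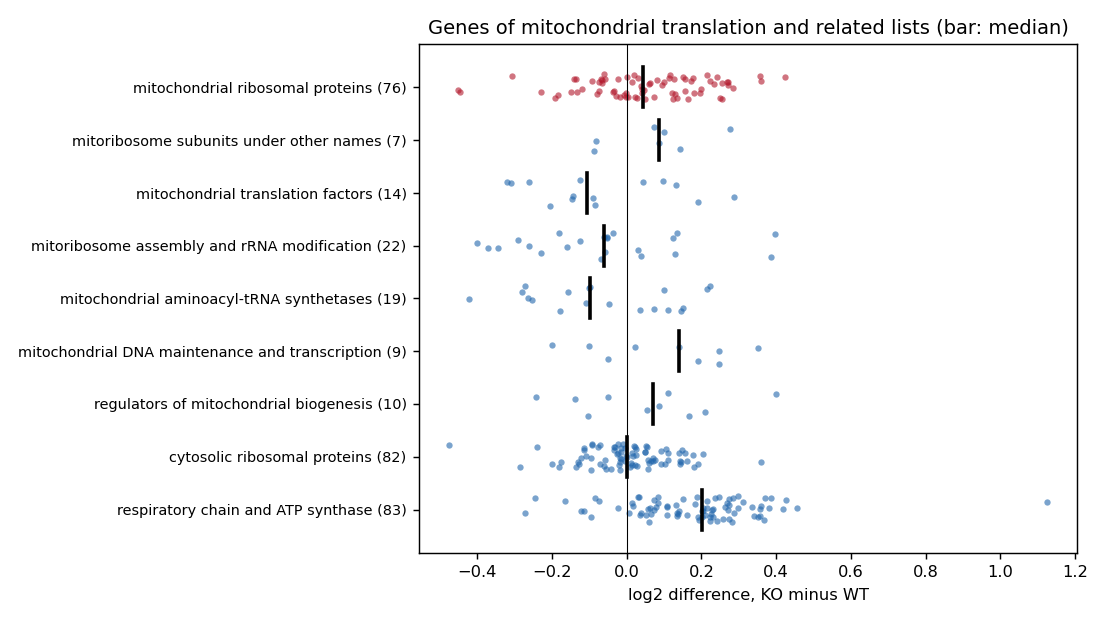
Log2 difference (knockout minus wild type, horizontal axis) of every tested gene in the mitochondrial ribosome list (red) and in 8 related lists (blue), with the median as a black bar and the number of genes in brackets. The mitochondrial ribosome has a median of 0.045, cytosolic ribosomal proteins of 0.00036 and the respiratory chain of 0.20.

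By position, no member lay within 10 Mb of Cebpb on chromosome 2, where the nearest was Mrps26 at 37.1 Mb. Mrpl20, whose bacterial relative is needed for large subunit assembly, was 0.057 Mb from the lipid transfer protein gene Cptp on chromosome 4, which the array calls Gltpd1. Gltpd1 fell by 1.65 on the log2 scale (limma adjusted p = 0.0136), as did its neighbour Pusl1, by 1.18 (adjusted p = 0.0281). Mrpl20, at 4.85, 5.04, 5.06, 4.60 and 5.01 in the knockouts and 5.20, 5.14, 4.84 and 4.95 in the wild types, differed by −0.12 ± 0.15, and Aurkaip1, the small subunit gene nearby, by 0.10 ± 0.14.

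Promoters were searched for 4 motifs in the window from 250 bases before to 50 after the gene start (RefSeq, GRCm38.p6, both strands), which 67 of the 76 genes had, as had 27025 genes in all. The C/EBP motif TTGCNNAA was present in 3 of the 67 (4.48%) and in 12.2% of all genes. The NRF1 motif, read as GCGCA, any base and GCGC, was present in 17.9% of the members and 5.19% of all genes, the ETS motif CCGGAAG in 35.8% and 9.93%, and the YY1 motif AAGATGGC in 17.9% and 3.19%. None of the motifs contains another. These shares describe letters in a window, and members are not independent of one another. The 12 members with the NRF1 motif had a median log2 difference of 0.18 and 9 of them lay above 0. The 12 with the YY1 motif had a median of −0.10 and 3 above 0, and the 24 with the ETS motif had a median of 0.067 and 19 above 0. Differences between members with and without a motif were not tested.

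The 3 C/EBP matches are printed with the motif in capitals because Cebpb is the gene knocked out, and 2 NRF1 matches and 1 YY1 match stand for the motifs more frequent here. Each line runs 5′ to 3′ on the gene's strand. The Mrpl28 window is chr17:26123319-26123358 (plus strand), that of Mrpl42 chr10:95502002-95502041 (minus strand) and that of Mrps22 chr9:98601762-98601801 (minus strand). The NRF1 windows are chr16:84735344-84735385 for Mrpl39 (minus strand) and chr1:79775967-79776008 for Mrpl44 (plus strand), and the YY1 window of Mrps12 is chr7:28741997-28742036 (minus strand).
Mrpl28, C/EBP: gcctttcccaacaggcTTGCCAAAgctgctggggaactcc
Mrpl42, C/EBP: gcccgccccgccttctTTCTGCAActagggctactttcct
Mrps22, C/EBP: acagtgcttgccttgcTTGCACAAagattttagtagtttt
Mrpl39, NRF1: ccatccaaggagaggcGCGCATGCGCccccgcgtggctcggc
Mrpl44, NRF1: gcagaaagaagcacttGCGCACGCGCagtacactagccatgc
Mrps12, YY1: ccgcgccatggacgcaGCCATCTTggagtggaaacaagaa

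Of the 3 genes with a C/EBP match, Mrps22 had levels of 1.10, 1.17, 1.16, 1.20 and 1.17 in the knockouts and 1.03, 1.05, 1.17 and 0.71 in the wild types. The knockouts lay close together and WT 4 was low. The difference of 0.17 ± 0.14 (SE) did not pass the test (limma adjusted p = 0.806, exact permutation p = 0.0238). Mrpl42 ranged from 1.31 to 1.60 in the knockouts and from 1.24 to 1.60 in the wild types, and Mrpl28 from 1.59 to 2.02 and from 1.14 to 2.25. In both of these genes WT 4 was the lowest array of all, and the other wild types lay within or above the range of the knockouts.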

How the data were processed

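Per the labels' protocols, DNase I treatment was followed by oligo dT primed synthesis from 0.3 µg of total RNA and Cy3 labelling. Per the file headers, the authors made the spot intensity values with Feature Extraction 10.5.1.1 on a design annotated on mm9; the submitters' processing notes name version 9.1. The deposited files also hold flags of another kind per spot (well above background, saturated, outlier). The authors' deposited series matrix holds log2 values. These followed the scanner values after the per-array scaling described below, not the unscaled ones. Apart from the centring of probes, what remained was an offset per array, which spanned at most 0.047 over the arrays. As an alternative, the matrix nearly repeats that scaling. Its scale and direction are thus settled, what its probes were centred on is unknown, and its columns had medians of 0.044, 0.22, −0.12, 0.035 and −0.14 (knockouts in order) and −0.28, −0.16, 0.22 and 0.38 (wild types).

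Control spots and outlier spots were left out, spots of a probe were averaged, and processed signals were divided by each array's 75th percentile and put on the log2 scale. The filter asked for a signal well above background on 4 or more of 9 arrays, and the brightest kept probe stood for a gene, under the design's gene name. Of 106 member probes, 105 were kept, and 97 matched RefSeq by accession, all under the same symbol. The group difference was fitted in limma 3.58.1 (lmFit, eBayes) under R 4.3.3 in two-sided tests without covariates, with Benjamini-Hochberg adjustment over 21609 genes. SE is limma's moderated standard error. The steps were tested on simulated data. The number of arrays limits the precision, and no label says whether the mice of a group came from separate litters.

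Members and gene lists were chosen with earlier results of these data known, and no list was tested as a set. Named are the 8 genes with the smallest p in each direction, those whose groups do not overlap, those with probes of opposite sign, those with 1 array far from its group (up to 4), those near Cptp or Cebpb, and up to 3 genes of each other list. Genes outside this rule are Mrpl22, Mrps23, Mrpl28 and Mrps22, and were chosen after their values were seen. A planned match of probes to proteins was not run, so whether a printed probe is coding or untranslated is not stated. Mouse numbers of the 2 groups did not pair the samples. Alternatives were the dim-probe filter, normexp, quantile and median scaling, the series matrix, the mean over probes, slide and replicate blocks, Y-linked signal, trend and robust settings, and leaving out each array.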

Additional observations from a re-analysis of the deposited data

Results flagged for a closer look

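A value was set apart where the gap between 1 array and the nearest other array of its group was a large share of the group's range (Dixon's 95% critical value, 0.829 for 4 arrays and 0.710 for 5), which chance gives in about 1 of 20 groups. Over the 76 genes this held for 3 in the knockouts and for 8 in the wild types, 7 of them on WT 4 and 1 on WT 3. No such count was made over all genes. Relative to the gene's wild-type mean, Mrps11 on WT 4 lay at −0.74, Mrpl46 on WT 4 at −0.33 and Mrpl42 on WT 4 at −0.27. Mrps12 on KO 4 lay at −0.61, Mrpl10 on KO 2 at 0.11 and Mrps14 on WT 3 at 0.22. The median over 15 genes of the upstream minus the downstream probe, −0.67 on WT 4, was also far from that of the other wild types. The causes were not tested.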

How the results depend on the processing

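The number of members past the threshold was 0 in the reported fit and in all alternatives run. The median difference of the members stayed above 0 in each, from 0.011 without KO 3 to 0.11 with the array median in place of the 75th percentile, which moved the median of all genes from 0.0052 to 0.073 and raised the members above 0 from 48 to 60. Members above 0 otherwise ranged from 40 to 55, and all genes above 0 went from 50.9% to 61.2% under that scaling. The median of the small subunit was 0.11 within the slide of KO 2, WT 1 and WT 2, and below 0 under quantile normalization (−0.0084), without KO 2 (−0.0048) and within the slide of KO 4, KO 5, WT 3 and WT 4 (−0.033). Members at an unadjusted p below 0.05, 2 as reported, numbered 1 without the dim-probe filter, with normexp, with the array median, with the replicate block, and with Y-linked level as a covariate or on the 6 arrays with Y-linked signal. They numbered 0 with slide as a block and within either slide, from 0 (without WT 2) to 4 (without KO 1) when 1 array was left out (1 without KO 3, KO 5, WT 1 or WT 3), and 7 without KO 1, KO 2 and WT 4, a set chosen after seeing the data. Genes called among all, 44 as reported, were 22 without the dim-probe filter, 5 with slide as a block, 2 within the slide of KO 4 and 4 each with the replicate block, the Y-linked covariate and the Y-linked arrays. With 1 array left out they ranged from 11 (without WT 1) to 163 (without WT 4), with 28 without KO 2, 18 without KO 3, 23 without KO 4 and 17 without WT 2 or WT 3, and they were 211 without KO 1, KO 2 and WT 4. Mouse numbers did not deviate together (correlations over genes of −0.30, 0.12, 0.15 and −0.48 for numbers 1 to 4), so the replicate block does not pair the samples. Within the slide of KO 2, Mrpl49 turned to 0.025, Mrps7 to 0.010 and Mrpl47 to −0.063. Where a group holds 1 array, its spread is taken as that of the other group.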
